A study of Drosophila melanogaster with 15 samples.

Results

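Of the 7035 genes that the deposited abundance table named only by a CG number, 3 were on in one fly line and off in the other. They were chosen by their measured levels: at least 2 TPM in every library of one genotype, at both oxygen levels, and under 0.3 TPM in every library of the other. TPM is a transcript's share of all transcripts in a library, scaled for transcript length, and was summed here over the transcripts of a gene. CG32581 was on in *foxo* mutants. CG13032 and CG44142 were on in w1118. Because these levels chose the genes, *foxo* against w1118 was not tested for them. The comparison the rule did not use, hypoxia against normoxia, was tested in the genotype in which each gene was on.

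The libraries came from whole mated females about 7 days old, 5 flies to a library. Mutants of the null allele *foxo* Δ94, from a stock kept over the balancer TM6B, gave 4 libraries after 16 h at 1% oxygen and 4 in ambient air. Flies of the w1118 control line gave 4 libraries after the same hypoxia and 3 in ambient air, which the labels number 2 to 4. The paper calls the replicates independent biological samples. There was 1 mutant line and 1 control line, so the *foxo* allele and the rest of the genetic background of each line cannot be told apart, and backcrossing of the mutant is not given in the sources used here.

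*foxo* encodes the transcription factor that acts below insulin signaling and is held out of the nucleus when insulin is high. A CG number is a name given by the genome annotation to a predicted *Drosophila* gene, and a gene keeps it until someone names it. *Drosophila* lines also differ from one another in gene copies, insertions and deletions, many of them in clusters of related genes that lie side by side.

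The lines were checked by the genes that define them. *foxo* was at or below 0.257 TPM in all 8 mutant libraries and between 18.3 and 39.9 TPM in the 7 libraries of w1118. The eye color gene *white* (*w*), whose loss marks w1118, lay between 0.192 and 0.801 TPM in all 15 libraries. Sperm and accessory gland products summed to at most 0.729 TPM in any library, and germline, eggshell, midgut, fat body, muscle, neuron and eye markers were present in every group, with the germline marker *bam* at 0 throughout. Library totals were 998679 to 999016 TPM. TPM keep no read number, so depth is unknown and the error given is that between libraries. A listed 0 also has no known detection limit, although 11 genes used by every cell were nowhere at 0 and had at least 16.5 TPM.

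CG32581, now named *sordd2*, encodes a RING-finger E3 ubiquitin ligase, an enzyme that attaches ubiquitin to other proteins. It lies on chromosome X at 15796908 to 15799162 of the dm6 build, on the minus strand, with 4 exons in each of 2 annotated transcripts of 1428 and 1345 nt that both encode 283 residues. In *foxo* mutants its level was 26.5, 19.2, 34.1 and 41.5 TPM in hypoxia and 25.7, 31.9, 31.4 and 30.5 TPM in normoxia. It was listed at 0 in all 7 libraries of w1118. Every mutant library was therefore well above the 2 TPM of the rule, and the hypoxic libraries spread more widely than the normoxic ones (CV of 31.7% and 9.54%). This wider spread was not particular to CG32581. The neighbouring gene CG8974 had a CV of 26.8% in hypoxic and 10.6% in normoxic mutants. The mutant mean of CG32581 was 30.1 ± 6.58 TPM (SD, n = 8), at percentile 65.8 of the 3952 CG genes with a mutant mean of 1 TPM or more. One transcript carried between 88.8% and 97.3% of this in each mutant library.

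CG13032 has no name and its function is not given in the sources used here. It lies on chromosome arm 3L at 16673964 to 16676264, on the plus strand, with 3 exons, 1 transcript of 2187 nt and a predicted protein of 660 residues. In *foxo* mutants its level was 0.0262, 0.0637, 0.0118 and 0.0141 TPM in hypoxia and 0, 0.0409, 0.0856 and 0.0286 TPM in normoxia. In w1118 it stood at 2.09, 5.41, 4.76 and 2.83 TPM in hypoxia and 5.11, 5.92 and 3.73 TPM in normoxia. It was thus a weakly expressed gene even where it was on, with a w1118 mean of 4.27 TPM that ranked at percentile 16.9 of 3953 CG genes, and its lowest w1118 library passed the rule narrowly.

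CG44142 encodes a predicted protein of only 83 residues from a single exon of 334 nt, at 13312855 to 13313188 on the minus strand of chromosome arm 3R. In *foxo* mutants it was listed at 0 in all 8 libraries. In w1118 it was at 147, 192.3, 119.4 and 178.8 TPM in hypoxia and 267.2, 210.3 and 220.6 TPM in normoxia. The w1118 mean of 190.8 TPM placed it at percentile 96.8 of the 3953 CG genes with a w1118 mean of 1 TPM or more, so a gene in the top ranks of one line was listed at 0 in the other. It is the one of the 3 genes on the same arm as *foxo*, which lies at 14056945 to 14087978 on 3R, 0.744 Mb away.

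**Figure D1:**
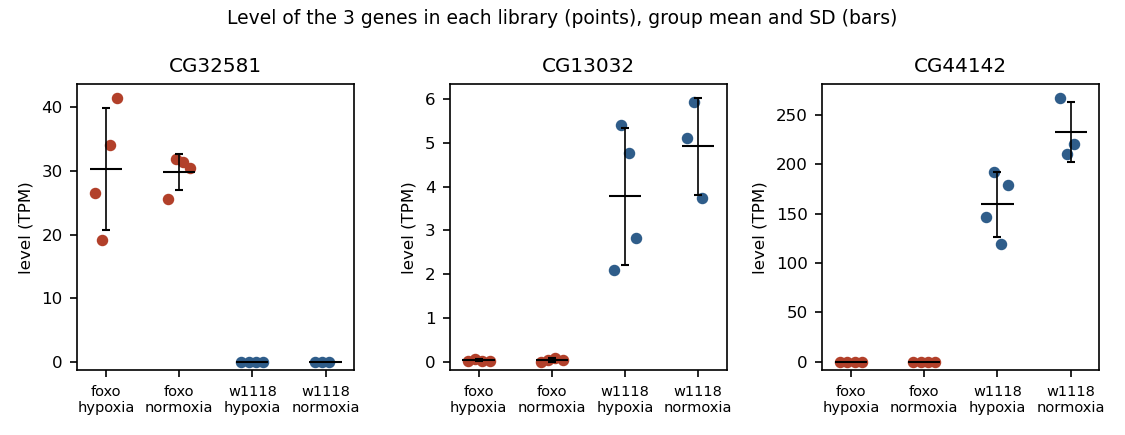
TPM (y axis, from 0, a separate scale in each panel) of CG32581, CG13032 and CG44142 in each library, with *foxo* mutants in red, w1118 in blue, and bars for the group mean and SD. CG32581 is at 19.2 TPM or more in every mutant library and at 0 in w1118, and CG44142 is at 119.4 TPM or more in every w1118 library and at 0 in the mutants.

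Some genes lay just outside the rule, and the set counted 16 when the means of the libraries were used. CG46276, one of the X-linked *Sdic* gene copies, missed by a single library, with 1.87 TPM in *foxo* hypoxia replicate 2 against at most 0.0772 TPM in w1118. CG18853 also missed by a single library, with 0.50 TPM in *foxo* normoxia replicate 4 against 24.5 to 42.0 TPM in w1118. CG13026 narrowly missed both limits, with a lowest mutant library of 1.99 TPM and a highest w1118 library of 0.344 TPM. Some genes missed only the limit for a gene that is on. In the *foxo* direction the others nearest it were CG33509 (lowest mutant library 1.39 TPM) and CG44102 (0.50 TPM). In the w1118 direction they were CG12546 (lowest w1118 library 0.843 TPM), CG5111 (0.751 TPM) and CG4998 (0.488 TPM). Other genes missed only the limit for a gene that is off. Nearest it were CG11413 (highest w1118 library 0.404 TPM), CG11458 (1.31 TPM) and CG14153 (1.47 TPM). On the other side they were CG14963 (highest mutant library 0.480 TPM) and CG12200, now *narya* (0.842 TPM). For scale, 3154 CG genes had 2 TPM or more in every library and 550 were at 0 in every library. CG32581 was the 1 CG gene at 0 throughout w1118 and at 2 TPM or more throughout the mutants, and CG44142 the 1 CG gene with the opposite pattern.

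**Figure D2:**
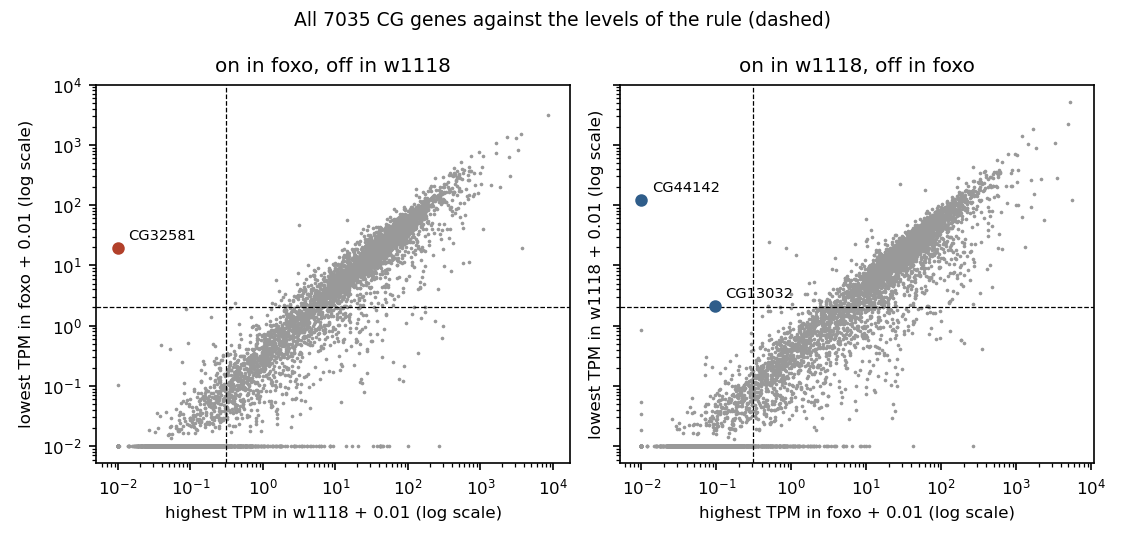
Each point is 1 of the 7035 CG genes, with the highest TPM in the genotype where it is off on the x axis and the lowest TPM in the genotype where it is on on the y axis (TPM + 0.01, both log scales); dashed lines mark 0.3 and 2 TPM. The 3 genes sit in the upper left corners, CG32581 and CG44142 far above the limit at 19.2 and 119.4 TPM and CG13032 close to it at 2.09 TPM.

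After 16 h of hypoxia, none of the 3 genes was called as changed in the line where it was on. Calls needed more than a 1.5-fold change and a limma adjusted p below 0.05, in a model of log2(TPM + 1) over all 10288 genes with a mean of at least 1 TPM in a group, which all 3 genes passed through the line where they were on. Among all genes tested, 18.9% were called in *foxo* mutants and 21.6% in w1118.

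CG32581 averaged 30.3 ± 9.63 TPM in hypoxic and 29.9 ± 2.85 TPM in normoxic *foxo* mutants (SD, n = 4 each), and the libraries overlapped. Its change was -0.03 ± 0.19 (SE) on the log2 scale with a 95% interval from -0.44 to 0.38 and a limma adjusted p of 0.947. The interval lies within 1.5-fold either way. The sign of this small value was not stable, and it became 0.053 with median-of-ratios scaling.

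CG13032 averaged 3.78 ± 1.57 TPM (SD, n = 4) in hypoxic and 4.92 ± 1.11 TPM (n = 3) in normoxic w1118. Hypoxic replicates 2 and 3 lay among the normoxic values and replicates 1 and 4 below them. The change of -0.35 ± 0.21 (SE) had a 95% interval from -0.81 to 0.10 and a limma adjusted p of 0.233. At this low level the added 1 TPM shrinks the change.

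CG44142 averaged 159.4 ± 32.7 TPM (SD, n = 4) in hypoxic and 232.7 ± 30.3 TPM (n = 3) in normoxic w1118. All 4 hypoxic libraries lay below all 3 normoxic ones. The change was -0.56 ± 0.17 (SE) on the log2 scale with a 95% interval from -0.93 to -0.19, a ratio of 0.679, and the limma adjusted p was 0.0275. It passed the limit on p but came just short of 1.5-fold. In w1118 the median change of all genes was 0.22 on the TPM as deposited and 0.01 after median-of-ratios scaling, under which CG44142 was called at -0.79 with an adjusted p of 6.75e-04. Without w1118 normoxia replicate 2, the highest library, the adjusted p was 0.146, without hypoxia replicate 3 it was 0.0790 and without normoxia replicate 4 it was 0.0704.

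Some tissue markers moved with oxygen in the same w1118 libraries and others did not fall. The 3 eggshell and yolk markers summed to 948.8 to 2370 TPM in hypoxia and 9534 to 15142 TPM in normoxia, and the 3 midgut protease markers to 636.7 to 1146 TPM in hypoxia and 4016 to 4278 TPM in normoxia. Fat body markers (19.0 to 66.7 against 86.4 to 157.1 TPM) and muscle markers (104.5 to 167.7 against 168.3 to 197.3 TPM) were also lower in hypoxia. Germline markers were at 533.7 to 909.5 TPM in hypoxia and 464.5 to 593.6 TPM in normoxia. Eye markers were at 641.7 to 842.3 and 593.2 to 656.6 TPM, and neuron markers at 9.52 to 29.2 and 9.78 to 12.9 TPM. The part of these tissues in the change of CG44142 was not tested. In whole flies, fewer cells of a type and less RNA per cell cannot be told apart.

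**Figure D3:**
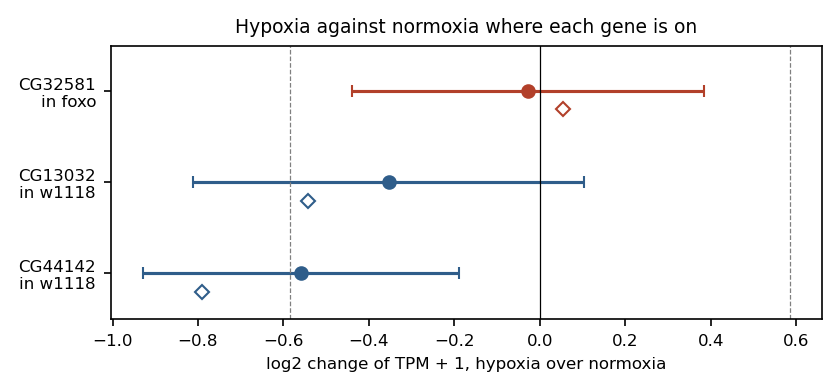
Log2 change of TPM + 1, hypoxia over normoxia (x axis), for each gene in the genotype where it was on. Filled points are the TPM as deposited with the 95% interval, open diamonds the values after median-of-ratios scaling, and dashed lines 1.5-fold; the filled points are at -0.03, -0.35 and -0.56, and the diamond of CG44142 at -0.79 lies beyond the dashed line.

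The gene beside CG32581 is its close relative CG8974, now *sordd1*, another RING-finger E3 ubiquitin ligase, which lies 0.88 kb away. CG8974 was expressed in both lines, at 60.6, 46.7, 76.2 and 88.4 TPM in hypoxic and 57.7, 73.3, 72.6 and 69.8 TPM in normoxic *foxo* mutants. In w1118 it was at 54.5, 109.2, 67.8 and 101.0 TPM in hypoxia and 70.0, 59.8 and 71.9 TPM in normoxia. The ranges overlapped at both oxygen levels. CG8974 differed between *foxo* mutants and w1118 by -0.27 ± 0.22 (SE) on the log2 scale in hypoxia (limma adjusted p of 0.398) and by 0.02 ± 0.24 in normoxia (adjusted p of 0.976).

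Within the mutants the pair kept a nearly fixed proportion. CG32581 made up between 29.2% and 32.0% of the summed TPM of the pair in all 8 mutant libraries, in hypoxic and normoxic flies alike, and 0% in w1118. The libraries in which CG32581 was high or low, such as hypoxia replicates 4 and 2, were those in which CG8974 was high or low. In hypoxia the sum of the pair was 65.9 to 130.0 TPM in the mutants and 54.5 to 109.2 TPM in w1118. In normoxia it was 83.4 to 105.2 TPM in the mutants and 59.8 to 71.9 TPM in w1118, with no overlap. The sum holds CG32581, which was chosen by its levels, so it was not tested between the lines. kallisto shares out reads that fit transcripts of both genes, and the number of such reads is unknown, so the split between the genes is less certain than their sum.

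**Figure D4:**
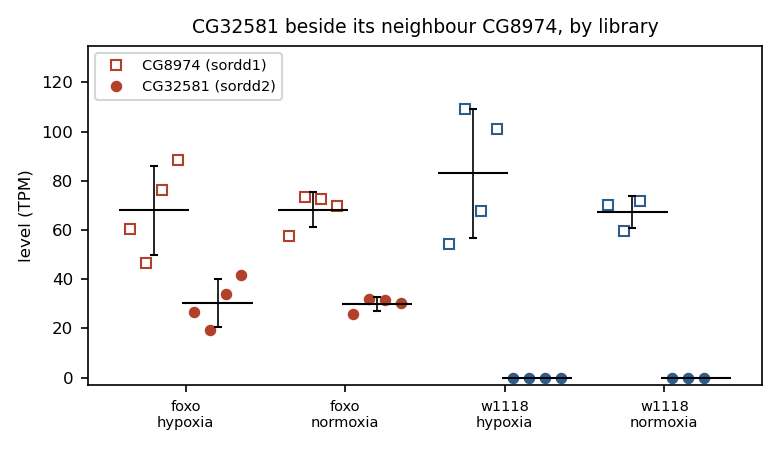
TPM (y axis, from 0) of CG8974 (open squares) and CG32581 (filled circles) in each library, *foxo* mutants in red and w1118 in blue, with the mean and SD of each group. CG8974 lies between 46.7 and 109.2 TPM in all 15 libraries, while CG32581 lies between 19.2 and 41.5 TPM in the mutants and at 0 in w1118.

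The same levels were met by 11 genes that have names, 8 on in *foxo* mutants and 3 on in w1118. The 3 on in w1118 were *foxo* itself, *Ada1-1*, which encodes a subunit of a histone acetyltransferase complex, and the long noncoding RNA CR45570. *Ada1-1* resembled CG32581 in its setting. It was at 0 in every mutant library and between 10.2 and 23.9 TPM in w1118, while its partner *Ada1-2* was on in both lines, at 17.8 to 44.6 TPM in the mutants and 13.6 to 28.2 TPM in w1118. CR45570 was at most 0.138 TPM in the mutants and between 4.74 and 35.0 TPM in w1118.

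On in *foxo* mutants were the cytochrome P450 gene *Cyp12d1-d*, the cadherin gene *Cad96Cb* and 6 copies of the linker histone gene *His1*. *Cyp12d1-d* lay between 7.22 and 61.5 TPM in the mutants and at 0 in w1118, and its partner *Cyp12d1-p* was on in both lines, at 10.9 to 37.1 TPM in the mutants and 13.0 to 20.6 TPM in w1118. *Cad96Cb* was at 2.12 to 12.2 TPM in the mutants and at most 0.10 TPM in w1118. The 6 *His1* copies had identical values and share their reads, so they count as 1 observation. Summed over all 23 copies, *His1* was on in both lines. In hypoxia the sum was 129.9 to 569.5 TPM in the mutants and 386.1 to 513 TPM in w1118. In normoxia it was 34.9 to 133.9 TPM in the mutants and 147.4 to 187.7 TPM in w1118, with no overlap.

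To see whether the difference between the lines reached the surrounding genes, all genes within 50 kb were compared between *foxo* mutants and w1118. This window was set after the data were seen. It held 58 genes, of which 40 passed the filter on low values. In hypoxia 8 of the 40 were called (5 higher and 3 lower in the mutants), against 14.2% of all genes tested, and in normoxia 6 (4 higher and 2 lower), against 7.98%. The median difference of the 40 was -0.26 in hypoxia and 0.09 in normoxia on the log2 scale, beside -0.22 and 0.04 for all genes. At 20 kb, 6 of 20 were called in hypoxia and 4 of 20 in normoxia, and at 100 kb, 15 and 10 of 101. The normoxia count rested on few libraries and was 3 without w1118 replicate 2, 1 without w1118 replicate 3 and 3 without w1118 replicate 4, and the hypoxia count was 13 without *foxo* replicate 4.

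The tested genes within 1 kb of the 3 were on in both lines and none was called at either oxygen level. They were CG8974 and CG15602 beside CG32581, *Lasp*, CG43954 and *zetaCOP* beside CG13032, and CG32473 beside CG44142. CG15602, 0.264 kb from CG32581, averaged 15.3 ± 5.25 TPM in hypoxic mutants and 21.9 ± 5.99 TPM in hypoxic w1118 (SD, n = 4 each). *zetaCOP*, a coatomer subunit of vesicle transport that lies 0.409 kb from CG13032, averaged 108.3 ± 8.38 TPM in hypoxic mutants and 146.8 ± 14.4 TPM in hypoxic w1118 (SD, n = 4 each). Its difference of -0.43 passed the limit on p (limma adjusted p of 0.00838) but not that on size. The same held in normoxia, with a difference of -0.45 (limma adjusted p of 0.0197). *zetaCOP* lay between 99.4 and 119.1 TPM in all mutant libraries and between 132.8 and 159.7 TPM in all w1118 libraries. CG32473, a predicted aminopeptidase gene 0.07 kb from CG44142, averaged 46.6 ± 15.9 TPM in hypoxic mutants and 61.3 ± 16.9 TPM in hypoxic w1118, a difference of -0.40 with an adjusted p of 0.233.

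Around CG44142 the called genes differed in both directions. CG45080, which lies 5.80 kb away, was at 1137, 821, 1609 and 1121 TPM in hypoxic mutants against 2229, 3297, 1817 and 2845 TPM in hypoxic w1118, with no overlap. It was lower in the mutants by a log2 difference of -1.12 in hypoxia (limma adjusted p of 4.65e-04) and of -0.73 in normoxia (adjusted p of 0.0329). The normoxia call was lost without any 1 of the 7 normoxia libraries, with an adjusted p of up to 0.106. The aminopeptidase genes CG8774 and CG8773 were higher in the hypoxic mutants, at 7.03 ± 1.30 and 3.86 ± 0.726 TPM against 1.12 ± 0.348 and 0.758 ± 0.257 TPM in hypoxic w1118 (SD, n = 4 each). Their log2 differences were 1.92 (limma adjusted p of 4.49e-06) and 1.47 (adjusted p of 2.56e-04). In normoxia CG8774 was higher by 0.81 (adjusted p of 0.0249), a call that was lost in 5 of 15 fits that left out a library and with a pseudocount of 0.1 TPM. CG8773 averaged 20.8 ± 5.01 TPM in normoxic mutants (SD, n = 4) and 16.9 ± 6.29 TPM in normoxic w1118 (n = 3), and its difference of 0.31 was not called (limma adjusted p of 0.542).

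Midgut markers, whose tissue is rich in peptidases, summed to 2082 to 3277 TPM in hypoxic mutants and 636.7 to 1146 TPM in hypoxic w1118. In normoxia the midgut markers summed to 4820 to 6832 TPM in the mutants and 4016 to 4278 TPM in w1118, also with no overlap. Their part in the difference of the aminopeptidase genes was not tested.

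Around CG13032, *Galphaf*, which encodes a G protein alpha subunit and lies 6.03 kb away, was at 1.41, 1.10, 2.17 and 1.79 TPM in hypoxic mutants against 3.47, 6.95, 4.17 and 5.55 TPM in hypoxic w1118. It was lower in the mutants by a log2 difference of -1.19 in hypoxia (limma adjusted p of 4.42e-04). In normoxia *Galphaf* averaged 3.26 ± 0.590 TPM in the mutants (SD, n = 4) and 4.12 ± 0.581 TPM in w1118 (n = 3), and its difference of -0.27 was not called (limma adjusted p of 0.538). The U12 spliceosomal RNA gene *snRNA:U12:73B* was also lower in the mutants, by -1.66 in hypoxia (adjusted p of 0.00322) and -1.63 in normoxia (adjusted p of 0.0123), and the normoxia call was lost without w1118 normoxia replicate 3 (adjusted p of 0.0800). It makes a small RNA without a poly-A tail, and its level in poly-A libraries may not follow its amount. CG13026, 48.4 kb away, had the opposite pattern to CG13032. It averaged 2.66 ± 0.683 TPM in hypoxic and 3.58 ± 0.71 TPM in normoxic mutants, against 0.175 ± 0.0439 TPM in hypoxic w1118 and 0.217 ± 0.112 TPM in normoxic w1118. CG13026 passed the filter on low values only through the mutant groups, so its log2 differences of 1.62 in hypoxia and 1.90 in normoxia are given as a description, although it is 1 of the genes counted as called at each oxygen level. With a pseudocount of 5 TPM its hypoxia difference was no longer called.

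Around CG32581, CG8952 was higher in the mutants by 0.78 in hypoxia (limma adjusted p of 0.00807) and 0.94 in normoxia (adjusted p of 0.00715). It averaged 45.0 ± 5.57 TPM in hypoxic mutants and 26.3 ± 6.04 TPM in hypoxic w1118. In normoxia it averaged 96.6 ± 18.3 TPM in the mutants (SD, n = 4) and 49.5 ± 8.04 TPM in w1118 (n = 3), and the groups overlapped at neither oxygen level. The normoxia call was lost without w1118 normoxia replicate 3 (adjusted p of 0.0533). The other calls there, CG43673 in hypoxia and CG43672 in normoxia, were each lost in 5 of 15 fits that left out a library.

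**Figure D5:**
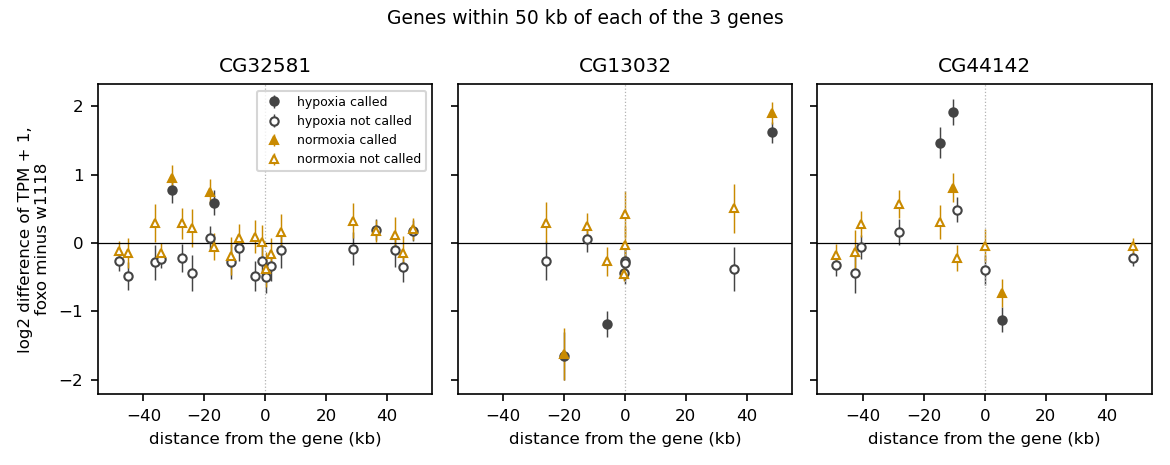
Log2 difference of TPM + 1, *foxo* minus w1118 (y axis, bars for the SE), of the tested genes within 50 kb of each of the 3 genes, by distance from the gene (x axis, kb, positive toward higher coordinates), in hypoxia (gray circles) and normoxia (orange triangles), filled where called. Most genes are not called, while CG13026 (1.62 and 1.90), CG8774 (1.92 in hypoxia) and *snRNA:U12:73B* (-1.66 and -1.63) stand apart.

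Within 1 Mb of *foxo*, where CG44142 lies, 23 of 145 genes tested (15.9%) were called between *foxo* mutants and w1118 in hypoxia and 8 of 145 (5.52%) in normoxia. On 3R at over 5 Mb from *foxo* the shares were 14.8% and 8.29%. The 145 genes left out *foxo* but kept CG44142, whose difference between the lines was set by the rule.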

How the data were processed

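Per the paper, poly-A RNA of whole females was sequenced with a directional kit, and reads were assigned by kallisto to RefSeq mRNAs of dm6. Its version is not given in the sources used here, nor is that of sleuth. Deposited values are TPM per transcript for 15 libraries. The authors' own tables of hypoxia-regulated genes hold p-values, q-values, effect sizes and fold changes from sleuth and were not used. TPM were summed per gene (17117 genes), and Ensembl loci of the same build matched 99.2% of them.

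The design foresaw counts or TPM, and the TPM form was used: log2(TPM + 1), limma 3.58.1 (R 4.3.3, variance trend, 1 model of 4 groups), with Benjamini-Hochberg adjustment over 10288 genes averaging at least 1 TPM in a group. Calls needed an adjusted p below 0.05 and more than 1.5-fold, as in the paper's main lists. For downregulated genes that depended on FOXO, the paper used a lower fold limit. The fit was tested on simulated data.

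The genes, lists and tests were chosen with earlier results of these data known. Text names all 3 genes, those just outside each limit and named genes at the same levels; neighbours were added after seeing the data. Residual correlations of same-numbered libraries across oxygen levels were 0.142, 0.374 and 0.177 in w1118 and -0.07 to 0.331 in *foxo* mutants. The main model paired no libraries. The replicate block, an alternative, used the replicate numbers of both genotypes. Promoter and protein sequences were not analysed here. Alternatives were other limits, scalings, filters, pseudocounts, a replicate block and leaving out each library.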

Additional observations from a re-analysis of the deposited data

How the results depend on the processing

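The 3 genes were members in every fit that left out a library, in which the set counted 3 to 4 genes. It counted 5 with 1 TPM as the level for a gene that is on, 5 with 0.5 TPM as the level for one that is off, and 16 when the means of the libraries were used. At 5 TPM it counted 2, without CG13032, and with median-of-ratios scaling 4. The change of CG32581 in hypoxic mutants was 0.053 under median-of-ratios scaling and ranged from -0.19 to 0.17 over the fits without a library, and it was positive without *foxo* hypoxia replicate 1 (0.02), hypoxia replicate 2 (0.17) and normoxia replicate 2 (0.01). That of CG13032 ranged from -0.52 to -0.17 and could not be tested with a filter of 5 TPM, and median-of-ratios scaling gave -0.54 with an adjusted p of 0.0420. That of CG44142 ranged from -0.66 to -0.43, with adjusted p from 0.0139 to 0.146. It was called under median-of-ratios scaling (-0.79), at any fold (-0.56), and without w1118 hypoxia replicate 2 (-0.66), hypoxia replicate 4 (-0.62) or normoxia replicate 3 (-0.63). With the replicate number as a block the changes were -0.03 for CG32581, -0.28 for CG13032 and -0.55 for CG44142, and the block changed no call of these genes. It did end the normoxia call of the neighbour CG45080, with 5 neighbours called in place of 6. That call was also lost without a filter on low values, that of CG43673 in hypoxia with a pseudocount of 5 TPM, and that of CG43672 in normoxia with pseudocounts of 0.1 and 5 TPM. Genes within 100 kb called numbered 15 in hypoxia and 10 in normoxia. Without a library, the neighbours called within 50 kb numbered 7 to 13 in hypoxia and 1 to 6 in normoxia. The causes were not tested. Depth is unknown, which limits what a level of 0 can show.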

Other observations

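Apart from whole genes, single transcripts were on in one line only. Of the CG genes, 12 transcripts met the same levels by themselves, and 9 of these came from genes that as a whole did not meet the rule. The lowest mean of any of these genes in either line was 2.94 TPM, for CG4741 in w1118. CG31262 had 1 transcript at 6.68 to 13.9 TPM in *foxo* mutants and at 0 to within rounding in w1118, and another at no more than 0.00328 TPM in the mutants and 5.78 to 8.82 TPM in w1118. CG5989 had a transcript listed at 0 in all mutant libraries and at 23.1 to 31.8 TPM in w1118, while the gene averaged 34.9 TPM in the mutants and 33.4 TPM in w1118. Such splits depend on how reads were shared among transcripts.

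The 5 *Sdic* gene copies on the X chromosome, of which CG46276 is one, summed to 2.87 to 6.97 TPM in *foxo* mutants and 0.0426 to 0.241 TPM in w1118. *Sdic* is known as a cluster of recently duplicated genes expressed in the male germline, and the samples were females. Sperm and accessory gland products summed to at most 0.387 TPM in hypoxic and 0.485 TPM in normoxic mutants. The source of the *Sdic* signal was not tested.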
